A study of Homo sapiens with 6 samples.

Results

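The genes described here are 9 chaperones and cochaperones of the cytosol that heat shock is known to induce or that work with the induced ones, and HSF1, the transcription factor that controls them. They were taken by gene name (HSPA1A, HSPA1B, HSPA8, HSPH1, DNAJB1, HSPB1, HSPB8, BAG3, HSP90AA1 and HSF1) and make up 10 of the 58735 genes listed in the deposited tables. RNA was sequenced from MDA-MB-231, an established line of human breast cancer cells that lack the oestrogen and progesterone receptors and HER2 amplification, with wild-type genotype per the labels. All cells were stained with PKH26, a membrane dye that is diluted at each division, and then grown for 12 days in DMEM with serum. Slow-cycling cells (SCC) were the brightest 1% in a fluorescence sort, and rapid-cycling cells (RCC) were sorted from the same kind of stained culture at lower brightness. The protocol calls the RCC gate moderate, whereas the sample characteristics call it PKH26lo. Each group had 3 biological replicates, so there were 6 libraries, all from 1 cell line that had been stained and sorted.

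Summed counts per library ran from 17655855 (RCC replicate 3) to 27831824 (SCC replicate 1). The cell line's defining markers VIM, CD44, EGFR, KRT8 and KRT18 were present in every library, with VIM at 752 to 835 CPM (counts scaled to a common library total). ESR1, PGR and CDH1 were at or below 0.696 CPM, low as is known of this line, and ERBB2 was at 71.3 to 106 CPM. The summed level of 15 leukocyte, erythroid, endothelial and fibroblast markers was 5.01 to 7.72 CPM in SCC and 4.01 to 5.26 CPM in RCC. SCC replicate 1 stood apart from the other libraries in its GC balance, and values without it are given for each member.

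In the heat shock response, HSF1 is held inactive in unstressed cells by chaperones, forms trimers when proteins unfold, and binds heat shock elements, which are repeats of the unit GAA and its reverse complement TTC. The induced proteins work as one system. HSP70 proteins bind unfolded chains, J-domain proteins such as DNAJB1 bring them clients and start their ATP cycle, and HSPH1 and BAG3 act on nucleotide exchange. Small heat shock proteins hold unfolding proteins in a state from which HSP70 can recover them, and HSP90 matures kinases and receptors. Cancer cells are known to carry high levels of several of these proteins without heat.

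Promoter sequence is shown for the member that passed the test, its near-identical copy and the member with the next smallest p, followed by selected heat shock elements of other members. The windows come from RefSeq on GRCh38.p14 and span 250 bases before to 50 bases after each annotated start. Windows were found for 9 of the 10 genes, 12 windows in all, since some genes have several starts. Each sequence is given 5′ to 3′ on the gene's own strand, without bases that GENCODE places in an exon in the 3 longer stretches. Capitals mark a match to GAANNTTC or TTCNNGAA, or to a 3-unit form, which is GAANNTTC followed by NNGAA, or TTCNNGAA followed by NNTTC.
HSPA1A, chr6:31815293-31815463, plus strand: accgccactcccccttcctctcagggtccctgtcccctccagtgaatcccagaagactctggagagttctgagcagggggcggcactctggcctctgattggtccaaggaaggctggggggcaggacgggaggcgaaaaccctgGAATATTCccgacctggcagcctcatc
HSPA1B, chr6:31827488-31827734, plus strand: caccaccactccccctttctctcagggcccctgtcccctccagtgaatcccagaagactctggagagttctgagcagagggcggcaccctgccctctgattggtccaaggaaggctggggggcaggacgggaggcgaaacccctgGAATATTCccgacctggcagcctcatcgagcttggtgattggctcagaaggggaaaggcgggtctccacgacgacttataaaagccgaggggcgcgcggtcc
DNAJB1, chr19:14518421-14518647, minus strand: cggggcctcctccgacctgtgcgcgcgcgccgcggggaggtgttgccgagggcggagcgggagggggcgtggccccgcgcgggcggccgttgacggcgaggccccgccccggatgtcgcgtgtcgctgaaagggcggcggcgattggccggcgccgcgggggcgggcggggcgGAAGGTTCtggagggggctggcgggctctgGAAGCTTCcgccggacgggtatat
HSPA8, first site, chr11:123062346-123062375, minus strand: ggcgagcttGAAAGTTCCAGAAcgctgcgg
HSPA8, second site, chr11:123062171-123062200, minus strand: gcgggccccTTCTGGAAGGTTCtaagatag
HSP90AA1, chr14:102087112-102087141, minus strand: ggagggttcTTCCGGAAGGTTCgggaggct
HSPB1, chr7:76302480-76302509, plus strand: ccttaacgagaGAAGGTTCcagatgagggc
HSPB8, chr12:119178832-119178861, plus strand: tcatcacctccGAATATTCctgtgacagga

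The upstream 250 bases of HSPA1A and HSPA1B aligned with 94.4% identity (235 identical bases, 14 mismatches and 2 gap bases). Further matches, not printed, lie in HSP90AA1 from -68 to -61 relative to the start, in HSPB8 from 5 to 12 and in the window of another DNAJB1 start from 2 to 9. HSPA1A and HSPA1B hold the same element, GAATATTC, ending 99 bases before the start of HSPA1A and 98 bases before that of HSPA1B. The element was found in 7 of the 9 genes with a window and in 8 of the 12 windows, against 13.5% of all 35116 RefSeq windows of 300 bases. The 3-unit form was found in HSPA8 and HSP90AA1, against 0.49% of all windows. GAANNTTC and TTCNNGAA are each their own reverse complement, so both strands were searched at once, and each 3-unit match contains overlapping shorter matches. HSPH1 and BAG3 held no match in their windows, which says only that these letters are not in these 300 bases. A match is a description of sequence and not evidence of binding. In the edgeR fit of all libraries below, HSPA8 and HSP90AA1, with the 3-unit form, were not called. Of the genes with only the shorter match, HSPA1B was called, and HSPA1A, DNAJB1, HSPB1 and HSPB8 were not. A link between element and call was not tested. The printed sites of HSPA8, HSP90AA1 and HSPB8 lie wholly in bases that GENCODE places in an exon.

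The question was whether RNA of these genes differed between slow-cycling and rapid-cycling cells. Of the 10, HSPA1B alone passed the test and was higher in SCC, 1.41-fold. DNAJB1, HSPB8 and BAG3 also had every SCC library above every RCC library, but did not pass. HSPA8 and HSP90AA1, the most abundant members, had fitted folds of 0.91 each and groups that overlapped. In bulk RNA of sorted cells, more cells making a transcript and more transcript per cell cannot be told apart. Counts were fitted with edgeR's quasi-likelihood test over 15881 genes with Benjamini-Hochberg adjustment, and a gene was called when its adjusted p was under 0.05.

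All 10 genes passed the filter on low counts. The 1 member called higher and 0 called lower stand against 1.69% of all tested genes called higher and 0.378% called lower. The share of counts in mitochondrial genes also differed between the groups without overlap, at 4.75, 4.47 and 4.45% in SCC and 3.95, 3.95 and 3.77% in RCC, and its part in the members' values was not tested. At an unadjusted p under 0.05, 0 members were lower, against 8.27% of all tested genes, and DESeq2 called 0 lower, against 1.07%. In CPM, 4 of 10 members had SCC wholly above RCC, against 14.4% of all tested genes, and 0 had SCC wholly below, against 13.4%. At an unadjusted p under 0.05, 5 of 10 were higher in SCC, against 11.4% of all tested genes. With the near-identical HSPA1A and HSPA1B entered as 1 gene, this count was 4 of 9. The fitted log2 fold change was above 0 for 7 members and below 0 for 3, with a median of 0.28 beside 0.00 over all tested genes. The members were chosen with earlier results of these data known, so these counts and this median are no independent evidence of a direction.

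HSF1, the regulator, lies at chr8:144291591-144314722 on the plus strand and has 10 exons in its longest transcript. Its level was 197, 122 and 133 CPM in SCC replicates 1 to 3 and 113, 120 and 130 CPM in RCC replicates 1 to 3. SCC replicate 1 was high, and the other 5 libraries interleaved. The log2 fold change was 0.32 (SE 0.15) with an adjusted p of 0.267 by edgeR. Without SCC replicate 1 it was 0.08. HSF1 is switched on mainly by trimer formation and phosphorylation of the protein, which RNA counts do not measure.

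HSPA1A and HSPA1B are 2 single-exon genes that encode nearly the same stress-induced HSP70. They are neighbours on the plus strand of chromosome 6, at chr6:31815464-31817946 and chr6:31827735-31830255, in the region of the major histocompatibility complex. HSPA1B was at 124, 96.7 and 104 CPM in SCC and at 72.6, 79.9 and 78.3 CPM in RCC. The lowest SCC library was above the highest RCC library. The means were 108 ± 14.0 and 76.9 ± 3.80 CPM (SD, n = 3 each), a log2 fold change of 0.49 (SE 0.094) with an adjusted p of 0.024 by edgeR. The call was kept in 10 of 17 alternative settings, over which the log2 fold change ran from 0.34 to 0.55 and the adjusted p from 2.7e-06 to 0.271. It was lost in 7 of them, namely when SCC replicate 3 (adjusted p 0.053) or RCC replicate 1 (0.161), 2 (0.095) or 3 (0.13) was left out, and in the 3 limma fits of FPKM values.

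HSPA1A was read far less often, with 115 to 336 counts per library. Its level was 9.31, 9.46 and 15.9 CPM in SCC and 9.82, 7.22 and 6.43 CPM in RCC. SCC replicate 3 was the highest library, and RCC replicate 1 lay above the other SCC libraries, so the groups overlapped. The log2 fold change of 0.55 (SE 0.23) had an adjusted p of 0.215 by edgeR. HSPA1A passed the threshold in 2 of 17 alternatives, the edgeR fits without SCC replicate 1 (adjusted p 0.017) and without a filter (0.0089). Its log2 fold change was 0.24 without SCC replicate 3.

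The counts of this pair cannot be separated with certainty. Of the 100-base windows along HSPA1A, 67.3% also occur in another gene, and for HSPA1B this was 72.7%, with each gene the other's main partner. A same-strand annotation, AL671762.1, covers 36.5% of the exonic bases of HSPA1B and had 0 counts in every library. That 0 does not show whether reads over these bases were counted for HSPA1B or left out. How reads that match several genes were counted is not given in the sources used here. The ratio of HSPA1B to HSPA1A in FPKM (counts per length and library) ran from 6.42 in SCC replicate 3 to 13.1 in SCC replicate 1, with RCC at 7.28, 10.9 and 12.0, so the split between the copies was uneven within a group.

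Summed over both copies, the stress-induced HSP70 was at 133, 106 and 120 CPM in SCC and at 82.5, 87.1 and 84.7 CPM in RCC. The groups did not overlap. Mean levels were 120 ± 13.5 and 84.8 ± 2.30 CPM (SD, n = 3 each), a difference of 35 CPM with a two-sided exact permutation p of 0.1, the smallest that 3 against 3 libraries allow. When the counts of both copies were entered as 1 gene in the fit of all genes, the log2 fold change was 0.50 and the edgeR adjusted p was 0.013. Reads that match both copies may have been left out of the counts, and a sum would not restore them.

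HSPA8, the constitutive HSP70 of the cytosol (HSC70), lies at chr11:123057489-123063230 on the minus strand. Its level was 2150, 2496 and 2472 CPM in SCC and 2645, 2711 and 2478 CPM in RCC. SCC replicate 1 was the lowest of the 6 libraries, and SCC replicate 2 lay above RCC replicate 3. Fitted over all libraries, HSPA8 had a log2 fold change of -0.14 (SE 0.073) and an adjusted p of 0.308 by edgeR, and it was -0.07 with SCC replicate 1 left out. The inducible copies together came to 11.9, 8.19 and 9.34% of the HSPA8 level (FPKM) in SCC and 6.01, 6.19 and 6.59% in RCC. These shares, which were not tested, did not overlap between the groups. Their level depends on how reads shared by the inducible copies were counted, which is not given. The highest share was in SCC replicate 1, where HSPA8 was lowest and HSPA1B highest.

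**Figure D1:**
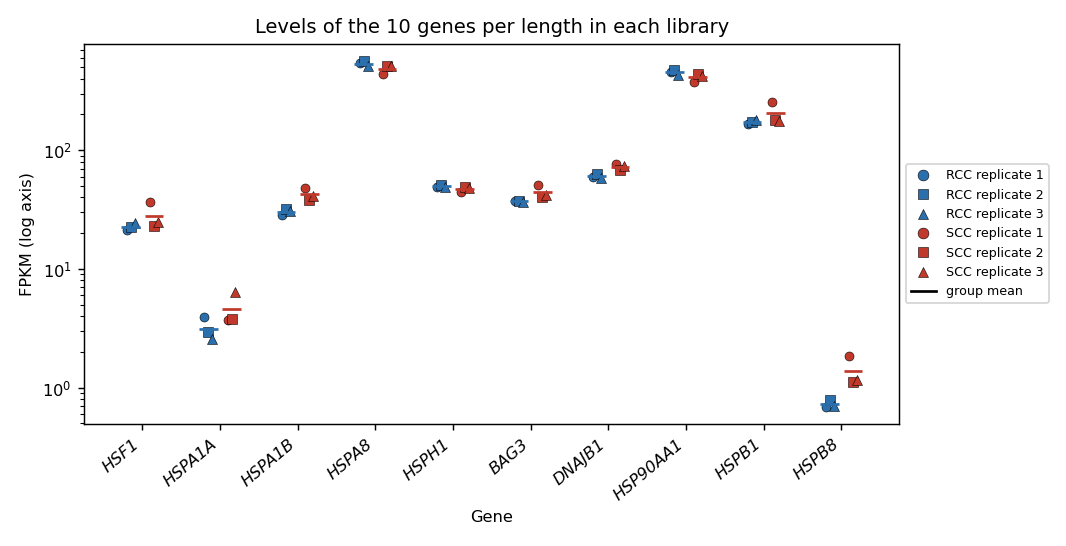
FPKM per library (log axis) of the 10 genes, in order of role, with SCC and RCC replicates as points and group means as lines. HSPA8 and HSP90AA1 sit at or above 376 FPKM in every library, HSPB8 sits at or below 1.83 FPKM, and HSPA1A sits far below its copy HSPA1B.

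DNAJB1, the J-domain partner that HSF1 induces together with HSP70, lies at chr19:14514770-14529770 on the minus strand. Its level was 285, 252 and 269 CPM in SCC and 221, 229 and 214 CPM in RCC. All SCC libraries lay above all RCC libraries, with a gap larger than the range of the RCC libraries. The log2 fold change was 0.28 (SE 0.068), the unadjusted p was 0.0017 and the adjusted p by edgeR was 0.066, so it was not called. It passed in 6 of 18 alternative settings, among them DESeq2 (adjusted p 0.031), the fit with a GC offset (0.013) and the fits without SCC replicate 1 (0.0021) or SCC replicate 2 (0.035). As a share of HSPA8 in FPKM, DNAJB1 was at 17.5, 13.3 and 14.3% in SCC and 11.0, 11.1 and 11.4% in RCC. The gene overlaps TECR on the opposite strand over 5.7% of its exonic bases, and TECR itself had a fold change of 0.21 on the log2 scale with an adjusted p of 0.265.

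HSPH1 (HSP110), a large HSP70 relative that acts as its nucleotide exchange factor, lies at chr13:31134974-31162388 on the minus strand. Its level was 378, 414 and 401 CPM in SCC and 415, 428 and 411 CPM in RCC. SCC replicate 1 was the lowest library, and SCC replicate 2 lay inside the RCC range. The log2 fold change was -0.07 (SE 0.063, adjusted p 0.524 by edgeR). It was -0.04 with SCC replicate 1 left out and 0.03 with the GC offset, so its sign depends on that setting.

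BAG3, an exchange factor that links HSP70 to small heat shock proteins and selective autophagy, lies at chr10:119651370-119677819 on the plus strand. Its level was 141, 112 and 116 CPM in SCC and 104, 101 and 101 CPM in RCC. The RCC libraries were close together, and all SCC libraries lay above them, SCC replicate 1 by the most. For BAG3 the log2 fold change was 0.27 (SE 0.089) with an unadjusted p of 0.012 and an adjusted p of 0.145 by edgeR, and it was 0.16 without SCC replicate 1. Its promoter window holds TGACTCA, an AP-1 type element found in 4.95% of all windows together with its reverse complement, and no heat shock element by the letters searched.

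HSP90AA1, the stress-inducible HSP90 of the cytosol, lies at chr14:102080738-102139699 on the minus strand. Its level was 2002, 2320 and 2221 CPM in SCC and 2431, 2462 and 2280 CPM in RCC. SCC replicate 1 was the lowest, and SCC replicate 2 lay above RCC replicate 3. HSP90AA1 had a log2 fold change of -0.13 (SE 0.070, adjusted p 0.309 by edgeR), and -0.07 with SCC replicate 1 left out. HSP90AB1, the constitutive paralog, was at 2351 ± 47.5 CPM in SCC and 2346 ± 133 CPM in RCC (SD, n = 3 each), a log2 fold change of 0.00. The FPKM ratio of HSP90AA1 to HSP90AB1 was 0.494, 0.560 and 0.526 in SCC and 0.557, 0.597 and 0.584 in RCC, and SCC replicate 2 overlapped RCC replicate 1.

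HSPB1 (HSP27), the abundant small heat shock protein of this line, lies at chr7:76302544-76304295 on the plus strand. Its level was 427, 292 and 290 CPM in SCC and 275, 280 and 294 CPM in RCC. SCC replicate 1 alone was high, and the other 5 libraries lay within 275 to 294 CPM. For HSPB1 the log2 fold change was 0.25 (SE 0.13, adjusted p 0.299 by edgeR), but 0.04 when SCC replicate 1 was left out and -0.01 under the GC offset.

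HSPB8 (HSP22), which works in a complex with BAG3 and HSP70, lies at chr12:119178642-119221131 on the plus strand. It was the rarest member, with 36 to 143 counts per library. Its level was 5.30, 3.22 and 3.37 CPM in SCC and 2.0, 2.25 and 2.01 CPM in RCC. The groups did not overlap, and SCC replicate 1 was again the highest. The log2 fold change of 0.94 (SE 0.24) was the largest of the 10, with an unadjusted p of 0.0024 and an adjusted p of 0.076 by edgeR. It passed in 5 of 18 alternative settings and was 0.66 without SCC replicate 1. HSPB1 exceeded HSPB8 in FPKM 141-fold, 158-fold and 151-fold in SCC and 241-fold, 218-fold and 255-fold in RCC.

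**Figure D2:**
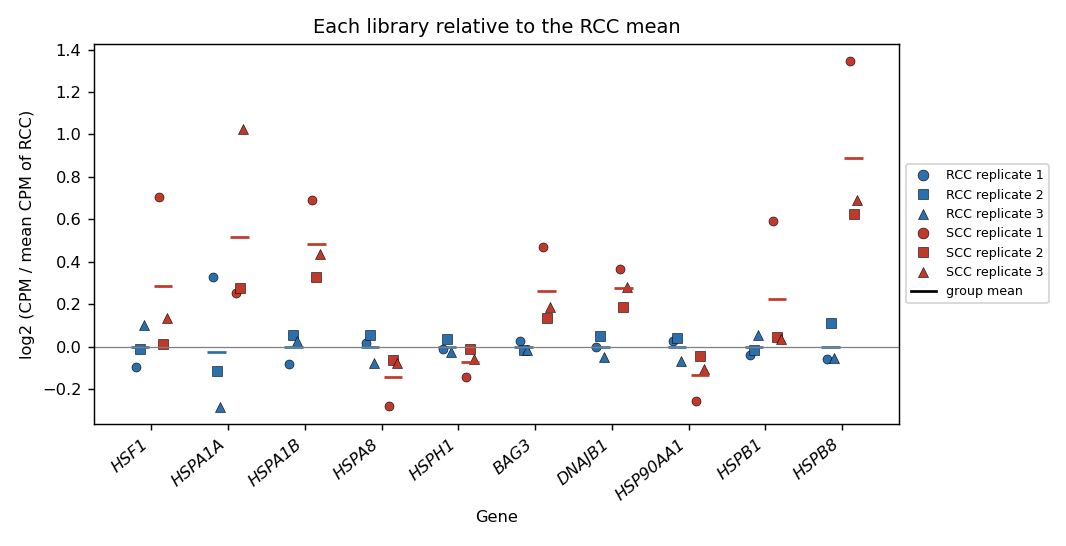
Log2 CPM of each gene in each library relative to the mean of its RCC libraries, with bars for group means of the log2 values. HSPA1B, DNAJB1, HSPB8 and BAG3 show all SCC points above all RCC points, and SCC replicate 1 is the highest SCC point for 6 genes.

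Levels of different genes were compared per length, as FPKM. The length is that of all annotated exons of a gene merged, such as 8390 bases for HSPH1 and 3672 for DNAJB1. Which transcripts were present was not tested, so the order, and every FPKM ratio or share between genes, depends on these lengths. The places of HSPA1A and HSPA1B also depend on how their shared reads were counted. In CPM, the RCC mean of HSPH1 (418) was above that of DNAJB1 (221). In RCC the order of means was HSPA8 (537 ± 26.5), HSP90AA1 (454 ± 19.9), HSPB1 (173 ± 5.87), DNAJB1 (60.0 ± 2.31), HSPH1 (49.7 ± 1.34), BAG3 (37.0 ± 0.429), HSPA1B (30.4 ± 1.67), HSF1 (22.8 ± 1.64), HSPA1A (3.14 ± 0.699) and HSPB8 (0.727 ± 0.0529; SD, n = 3 each). No neighbours in that order overlapped in RCC. In SCC the order of means was the same, from 486 ± 42.6 for HSPA8 to 1.37 ± 0.393 for HSPB8. There HSPA8 overlapped HSP90AA1, HSPH1 (47.0 ± 2.42) overlapped BAG3 (44.4 ± 5.40), and BAG3 overlapped HSPA1B (42.6 ± 5.23). Together the 10 genes held 0.589 ± 0.0313% of all counts in SCC and 0.628 ± 0.0184% in RCC (SD, n = 3 each), a sum set mainly by HSPA8 and HSP90AA1.

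**Figure D3:**
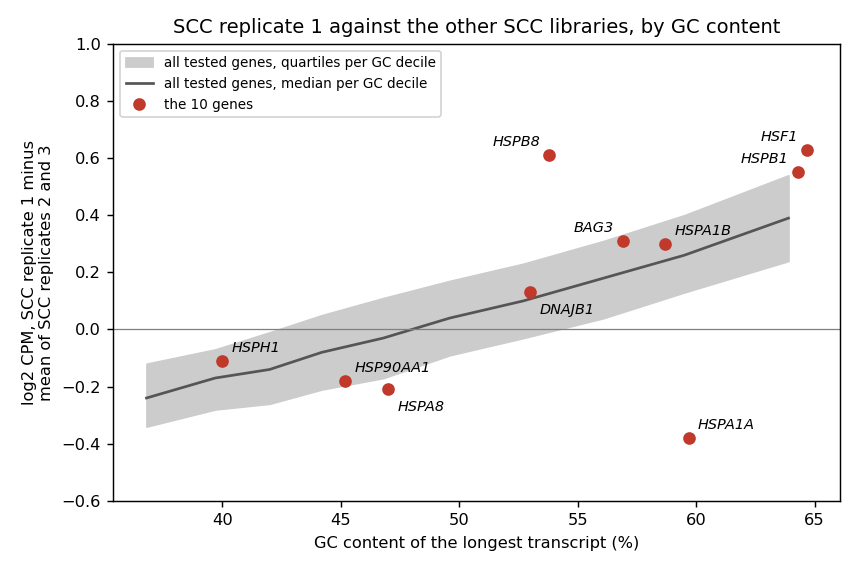
Difference in log2 CPM between SCC replicate 1 and the mean of SCC replicates 2 and 3 against transcript GC content (%), for the 10 genes (points) and for all tested genes by GC decile (line, median; band, quartiles). The median over all genes climbs with GC content, and 6 of the genes lie on the side above 0.

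SCC replicate 1 differed from the other SCC libraries along with GC content. Over all tested genes, its median log2 difference from the mean of SCC replicates 2 and 3 was -0.17 in the GC decile of HSPH1 (GC content 40%) and 0.39 in the decile of HSF1 (64.7%) and HSPB1 (64.3%). The members' own differences were 0.63 for HSF1, 0.55 for HSPB1, 0.61 for HSPB8, 0.31 for BAG3, 0.30 for HSPA1B and 0.13 for DNAJB1. They were -0.21 for HSPA8, -0.18 for HSP90AA1 and -0.11 for HSPH1. HSPA1A, at 59.7% GC, went the other way from its decile, with -0.38 against a median of 0.26. HSPB8, at 53.8% GC, exceeded its decile's median of 0.10 by the most. SCC replicate 1 was the highest of the 6 libraries for 6 members and the lowest for the 3 members whose fold change was below 0.

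With that library left out, the log2 fold changes of the 4 members whose groups did not overlap, above 0 by how the 4 were chosen, were 0.39 for HSPA1B, 0.24 for DNAJB1, 0.66 for HSPB8 and 0.16 for BAG3. With the GC offset in all 6 libraries, they were 0.34, 0.22, 0.86 and 0.15 in the same order. For HSPB1 and HSF1 the values shrank to 0.04 and 0.08 without the library. Without SCC replicate 1, HSPA1A, HSPA1B and DNAJB1 were called higher (3 of 10 members, with 3.93% of all tested genes called higher). With the GC offset, HSPA1B (adjusted p 0.0014), DNAJB1 (0.013) and HSPB8 (0.036) were called, 3 of 10 against 3.29% of all tested genes. DESeq2 called HSPA1B (3.6e-04), DNAJB1 (0.031) and HSPB8 (0.032) higher, against 3.02% of all tested genes. In the limma fits of log2(FPKM + 1) and log2(FPKM + 0.1), 0 of 10 members were called higher at 1.04% and 0.938% of all genes, although 4 had an unadjusted p under 0.05 in each. Without a filter, edgeR called 7 members higher, all but HSPA8, HSPH1 and HSP90AA1 (2.65% of all genes). Limma without a filter called 0 (0.128%), again with 4 at an unadjusted p under 0.05. The replicate block left 1 member called (2.20% of all genes), and the block with the GC offset 3 (3.91%). With SCC replicate 2 left out, 3 members were called (3.57% of all genes). With SCC replicate 3 left out 0 were called (1.09%), and with RCC replicate 1, 2 or 3 left out 0 were called as well (0.608%, 0.602% and 0.630%), while 4 to 6 members had an unadjusted p under 0.05 in these fits.

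**Figure D4:**
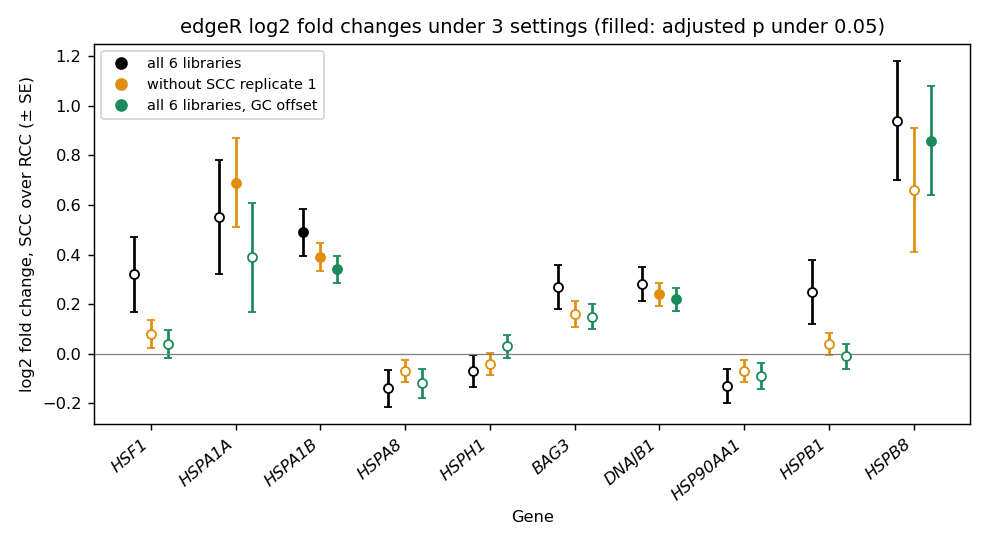
Log2 fold changes of SCC over RCC from edgeR for the 10 genes. Settings are all libraries, SCC replicate 1 left out and a GC offset (filled points, adjusted p under 0.05). Bars are standard errors derived from the F statistic of each fit. HSPA1B is filled in all 3 settings, and HSPB1 and HSF1 move toward 0 in the other two.

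The remaining parts of the cytosolic network were read from fixed lists that share no gene with the 10, while HSPD1, HSPE1 and DNAJB9 each stand in 2 of the lists. Of 15 further HSP70 family and exchange genes, 1 was called higher and 0 lower, with a median log2 fold change of 0.09. The count called higher was 2 with the GC offset, without a filter or without SCC replicate 2, and 0 in the limma fits and without SCC replicate 3 or any 1 RCC library. The called gene was HSPA6, an HSP70 that is nearly silent without stress, at 3.23 ± 0.706 CPM in SCC and 1.44 ± 0.298 CPM in RCC (SD, n = 3 each), a log2 fold change of 1.17 with an adjusted p of 0.046 by edgeR. It lost the call in 8 of 18 alternatives, among them leaving out SCC replicate 1 or 3 or any 1 RCC library, and it has a near copy, HSPA7. BAG4, an exchange factor, had the lowest value of that list at -0.18 (adjusted p 0.295), and HSPA1L, the neighbour of HSPA1A, was at 0.669 to 1.04 CPM. DNAJA4 was not tested, and of the 11 tested J-domain genes none was called, with a median of -0.01 between -0.12 (DNAJA2) and 0.26 (DNAJB2). At an unadjusted p under 0.05 by edgeR, 1 of these J-domain genes was higher and 0 were lower, and DESeq2 called 0.

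Of 17 further HSP90 and cochaperone genes, 0 were called in either direction by edgeR with all libraries, with a median of -0.07. Other edgeR fits called 1 higher (without a filter or without SCC replicate 2) or 1 higher and 1 lower (without SCC replicate 1). At an unadjusted p under 0.05 by edgeR, 1 was higher and 4 were lower, beside 11.4% and 8.27% of all tested genes. In CPM, 2 of the 17 had SCC wholly above RCC and 5 wholly below, against 14.4% and 13.4% of all tested genes. The values ran from -0.25 for CHORDC1 (adjusted p 0.112), a cochaperone that HSF1 induces, to 0.39 for STUB1 (adjusted p 0.122), the ubiquitin ligase CHIP that marks HSP70 and HSP90 clients and that DESeq2 called higher. Of 8 further small heat shock protein genes, CRYAB among them, 7 were too low to test, and HSPB11 was at -0.19 on the log2 scale (adjusted p 0.308). In TRiC and prefoldin, which fold actin and tubulin, 0 of 14 genes were called by edgeR with all libraries or by DESeq2, and the median was -0.15, or -0.11 with SCC replicate 1 left out. Other edgeR fits called 2 lower (without a filter) or 1 lower (without SCC replicate 2, or with the GC offset and block). At an unadjusted p under 0.05 by edgeR, 8 of the 14 were lower and 0 were higher, beside 8.27% and 11.4% of all tested genes. There 9 of the 14 had SCC wholly below RCC, against 13.4% of all tested genes, whereas PFDN1 had the highest value at 0.04 and PFDN5 the lowest at -0.30. Of 9 tested genes of the HSF family and of known HSF1 regulators, 0 were called by edgeR with all libraries and 1 higher without a filter, SCC replicate 1 or SCC replicate 2, and the values ran from -0.23 (HSBP1, which binds the HSF1 trimer) to 0.40 (DEDD2, called higher by DESeq2), with a median of 0.04. At an unadjusted p under 0.05, 1 was higher and 1 lower.

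A list of known HSF1 targets outside the cytosolic chaperones gave another count. It leaves out cytosolic cochaperones that HSF1 induces, such as CHORDC1, which stand in the lists above. Of 10 tested, 5 were called higher (beside 1.69% of all tested genes) and 0 lower, with a median log2 fold change of 0.39. The list was chosen with earlier results of these libraries known, and its count is no independent evidence of a direction. RGS2, which limits G-protein signals, had the smallest p, at 9.76 ± 0.290 CPM in SCC and 4.48 ± 0.696 CPM in RCC (SD, n = 3 each; log2 fold change 1.13, adjusted p 0.0019 by edgeR). Other called genes, named after their values were seen, included IER5 (0.84, or 0.64 with SCC replicate 1 left out), a growth-factor response gene whose protein acts on HSF1, CLU (0.50), a secreted chaperone, and ZFAND2A (0.56), a proteasome-associated protein. None of these 4 named genes is a chaperone of the cytosolic HSP70 or HSP90 cycle, because the list was drawn up without such chaperones. HSPE1, the mitochondrial cochaperonin, had the lowest value at -0.43 (adjusted p 0.212), with 47.8 CPM in SCC replicate 1 against 88.1 and 80.1 CPM in the other SCC libraries. The count of targets called higher was 1 without RCC replicate 2, 2 without RCC replicate 1 or RCC replicate 3 and 3 without SCC replicate 3. It was 0 in the limma fit without a filter, where 7 had an unadjusted p under 0.05 and a value above 0. It was 7 with the GC offset, with or without the block, and 7 without SCC replicate 1. In edgeR fits without a filter, SCC replicate 1 or SCC replicate 2, and with the GC offset and block, 1 target was called lower.

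Chaperones of other compartments were read beside them. Of 10 mitochondrial chaperone genes, 0 were called by edgeR with all libraries or by DESeq2 and 1 was lower at an unadjusted p under 0.05, with a median of -0.04 and LONP1, a protease with chaperone activity, highest at 0.20 (adjusted p 0.286). In 4 other edgeR fits (without a filter, SCC replicate 1 or SCC replicate 2, and with the GC offset and block) 1 of these genes was called lower. Of 15 chaperone genes of the endoplasmic reticulum, HSPA5 (BiP), the HSP70 of that compartment, was the 1 called higher and 0 were called lower. HSPA5 was at 1110, 1130 and 1131 CPM in SCC and 836, 809 and 773 CPM in RCC, a log2 fold change of 0.48 (SE 0.060, adjusted p 0.0015 by edgeR). It lost the call in 1 of 18 alternatives. With the GC offset, with or without the block, 3 genes of this list were called higher and 1 lower, and without SCC replicate 1 the counts were 2 and 0. The median of the list was 0.09, and MANF had the lowest value at -0.20 (adjusted p 0.162). Of 15 immediate early genes, which respond within minutes to many stimuli, 12 were called higher, beside 1.69% of all tested genes. In the limma fit without a filter, 7 of the 15 were called higher. The median was 1.31, led by FOSB at 4.95 with FOS at 3.12, while BTG2 had the lowest value at -0.02. This list too was chosen with earlier results of these libraries known, so its count is no independent evidence of a direction. The part of these genes in the values of HSPA1B and the other members was not tested.

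**Figure D5:**
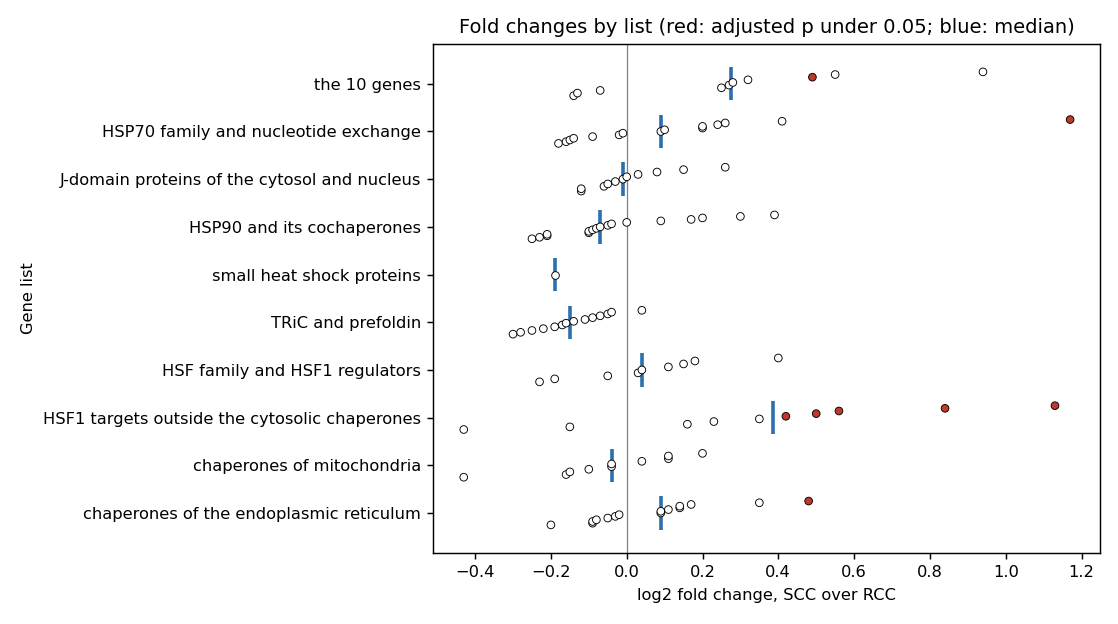
Log2 fold changes of SCC over RCC for each tested gene of the chaperone lists (points; red, adjusted p under 0.05; blue, median of the list). The 10 cytosolic genes have 1 red point and a median of 0.28. HSF1 targets outside the cytosolic chaperones have 5 red points, and TRiC and prefoldin lie mostly below 0.

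The genes with the profile most like that of a member across the 6 libraries were found for HSPA1A, HSPH1 and HSPB1, among 10904 genes with a mean of at least 5 CPM. Likeness was the root mean square difference of log2 CPM after centring each gene on its own mean. For HSPH1 the closest were GNE (0.006), RTCA (0.012) and CCT5 (0.012), against a median of 0.128 over all genes. Each had a log2 fold change of -0.07, which follows from the choice by likeness. For HSPB1 they were RCE1 (0.016), RAI1 (0.020) and LZTS2 (0.020), against a median of 0.244. HSPA1A had no equally close profile, with NFIL3 at 0.222, HEIH at 0.224 and PODXL2 at 0.242 beside a median of 0.432. It had only 115 to 336 counts per library, and the part of count noise in this was not tested. These values describe 6 libraries and carry no test.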

How the data were processed

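RNA-seq was compared between 3 SCC and 3 RCC libraries. The authors deposited counts, not normalized, and FPKM for each gene. Per the labels' protocols, TRIzol was used for RNA extraction and an NEBNext Ultra kit for the libraries. HISAT2 2.0.5 and featureCounts 1.5.0-p3 are named in the submitters' processing notes. Use of strand, treatment of reads with several matches and the genome build are not given in the sources used here, and overlapping or near-identical genes are uncertain for that reason. The gene IDs of all 58735 rows are in GENCODE release 29 (GRCh38), and 58724 rows have its start and end, so coordinates are on that build. Deposited FPKM equalled count per length per library constant, 0.983 to 1.020 times the summed count.

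Counts were filtered (filterByExpr, minimum count 10), scaled by TMM and fitted on group alone with edgeR 4.0.16 in R 4.3.3, using the two-sided quasi-likelihood test with Benjamini-Hochberg adjustment over 15881 genes. CPM values use TMM-scaled totals. Alternatives were DESeq2 1.42.0, other scalings and filters, limma 3.58.1 on log2(FPKM + 1) or log2(FPKM + 0.1), a replicate block, a GC offset (lowess span 0.3, from transcript GC content) and leaving out each library. Tested on simulated counts for this comparison (15585 genes), the fit recovered 60.6% of genes changed 1.5-fold and 76.8% of those changed 2-fold.

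The members and lists were chosen with earlier results of these data known, so their counts are no independent evidence of a direction. Besides all members, the text names each list's called gene with the smallest p, its highest and lowest log2 fold change, every called gene of a list with 3 or fewer calls, HSPA1L, HSP90AB1, HSPA5 and, for HSPA1A, HSPH1 and HSPB1, the 3 genes of closest profile. A called gene among the HSF1 targets enters the counts but is not reported here.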

Additional observations from a re-analysis of the deposited data

How the results depend on the processing

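No member was called lower in any setting run with edgeR, DESeq2 or limma; at an unadjusted p under 0.05, lower counts were 2 without SCC replicate 2, 1 with the GC offset and replicate block together, and 0 in the others. Genes called higher over the whole table, 268 with all libraries, numbered 480 by DESeq2, 995 without a filter, 523 with the GC offset, 621 with the GC offset and replicate block, 130 and 117 by limma on log2(FPKM + 1) and log2(FPKM + 0.1), 48 by limma without a filter, and 99 to 642 when 1 library was left out. Genes called lower, 60 with all libraries, numbered 170, 315, 245, 432, 36, 34 and 1 in the same order, and 8 to 343 when 1 library was left out. Members called higher, 1 with all libraries, numbered 3 by DESeq2, 7 without a filter (2.65% of all genes), 3 with the GC offset, 3 with the GC offset and replicate block, 0 in each limma fit and 0 to 3 when 1 library was left out. They numbered 3 without SCC replicate 1 or SCC replicate 2, and 0 without SCC replicate 3 or any 1 RCC library, where 4 to 6 had an unadjusted p under 0.05. With the replicate block alone, 350 genes were called higher and 106 lower, and the members called stayed at 1. Same-numbered libraries did not deviate together (correlations -0.009, 0.025 and -0.079). With 3 libraries per group, these values cannot decide whether same-numbered samples came from the same stained culture.

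The sign turned for HSPH1 (0.03 with the GC offset and 0.03 with the block added) and for HSPB1 (-0.01 and -0.02). List medians moved as follows. For the HSP70 family, the median was -0.02 and -0.03 by limma with either pseudocount and -0.05 to 0.13 with 1 library left out. For J-domain genes it was -0.05 without RCC replicate 3, for HSP90 cochaperones -0.10 to -0.03 and for the HSF family 0.10 without RCC replicate 3. For HSF1 targets it was 0.35 by limma on log2(FPKM + 1) with or without a filter and 0.33 to 0.44 with 1 library left out. For the endoplasmic reticulum it was 0.01 with the GC offset, 0.02 with the block added and 0.01 to 0.08 with 1 library left out. For immediate early genes it was 1.15 with at least 10 counts in every library, 1.02, 1.11 and 0.90 by limma, 1.17 with the GC offset with or without the block, and 1.12 to 1.40 with 1 library left out. The causes of these shifts were not tested. Depth limits HSPB8 (36 to 143 counts per library) and HSPA1A (115 to 336) most.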
